A study of Mus musculus with 8 samples.

Results

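The 8 expression arrays of this series were set in 2 sides that crossed the transfection labels. Side A held pcDNA3.1 replicate 1 with Bcl11b replicates 1, 2 and 3, and side B held pcDNA3.1 replicates 2, 3 and 4 with Bcl11b replicate 4, so each side held 4 of the 8 arrays. The sides were read from the measured signals of these same arrays, not from a label. The labels name no difference in culture, day or handling between them, so the arrays are called here by their side only. Because every gene took part in that choice, all differences between the sides are given as a description, with no test.

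Cells keep several large molecular machines that are assembled from many small proteins. The respiratory complexes of the inner mitochondrial membrane pass electrons to oxygen and drive ATP synthase, cytosolic and mitochondrial ribosomes translate messenger RNA, and core histones package newly replicated DNA. The genes of the replication-type histones are short and lack introns, and their messengers are made mainly during DNA synthesis. Adhesion and matrix genes, by contrast, mostly encode large secreted or membrane proteins that fix a cultured cell to its substrate.

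The cells were the wild-type STHdh Q7 line, a conditionally immortalized striatal progenitor line of the mouse. They received either the empty expression plasmid pcDNA3.1 as the control (the mock-transfected cells, n = 4) or the same plasmid carrying the cDNA of mouse Bcl11b, a zinc finger transcription factor of striatal neurons (n = 4), and were harvested 2 days later. All 8 samples therefore shared 1 line, the transfection reagent and the plasmid backbone. RNA was hybridized to an Illumina bead array of 25697 probes for 18120 gene symbols. The study describes its expression data as coming from 4 different transfected sets of cells. No replicate was labelled as a separate passage or donor. The p-values of the labelled contrast therefore measure the spread between transfected sets of 1 line.

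A probe was used when its detection p-value was under 0.01 on at least 4 arrays, which held for 10622 probes of 7874 symbols, 9360 of them on all 8 arrays. Between 10121 and 10784 probes were detected per array. The median deposited signal was 53.9, 26.0, 25.2 and 20.1 intensity units on the 4 side A arrays and 31.6, 41.1, 45.8 and 30.2 on the 4 side B arrays, so the sides overlapped in brightness. Of 14 striatal neuron markers on the array, 12 were detected on no array, among them Ppp1r1b, Gad1, Gad2, Drd1 and Drd2, whereas 10 of 12 fibroblast or mesenchyme markers were measured, with Vim, Col1a1 and Pdgfrb on all 8 arrays. Of the neural progenitor markers, Nes, Sox2, Dlx1 and Dlx2 were detected on all 8 arrays and the other 7 of 11 on none. Microglial markers (11 of 12), endothelial markers (8 of 9), astrocyte or oligodendrocyte markers (9 of 10) and general neuron markers (8 of 12) were mostly detected on no array. A few markers differed between the sides described below, by fitted differences (log2, side A minus side B). Of the 4 measured progenitor markers Sox2 (-0.96) was called higher on side B, while Nes (-0.15), Dlx1 (-0.25) and Dlx2 (-0.18) were not called. S100a4 (1.23) was called higher on side A, but the other 9 of the 10 measured mesenchyme markers were not called. Of these 10, 6 lay above 0 and 4 below. Egfl7 (0.98) and Slc1a3 (1.48, detected on 4 arrays) were also called higher on side A. Their part in the results was not tested.

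The first principal component of the detected probes held 47.1% of the variance and ordered the arrays across the labels. Its scores were -37.3, 28.2, -9.27 and 26.1 for pcDNA3.1 replicates 1 to 4 and -20.9, -18.8, -15.1 and 47.1 for Bcl11b replicates 1 to 4. Bcl11b replicate 4 thus lay at the end opposite to the other Bcl11b arrays, next to pcDNA3.1 replicates 2 and 4. pcDNA3.1 replicate 3, placed on side B, had the sign of side A on this component, so the first component alone did not give the sides. Nor did clustering of the arrays, which joined pcDNA3.1 replicate 3 with pcDNA3.1 replicate 1 and then with Bcl11b replicates 1 to 3, apart from pcDNA3.1 replicates 2 and 4 and Bcl11b replicate 4. Over the detected probes, Bcl11b replicates 1, 2 and 3 correlated with one another at 0.987 to 0.995, whereas Bcl11b replicate 4 correlated with them at 0.934 to 0.940 and with pcDNA3.1 replicate 2 at 0.979. Side, added after transfection, took up 40.8% of the total sum of squares and transfection, added after side, 27.7%. The sides were read from these same signals and transfection was a label, so nothing is read from which share is larger.

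**Figure D1:**
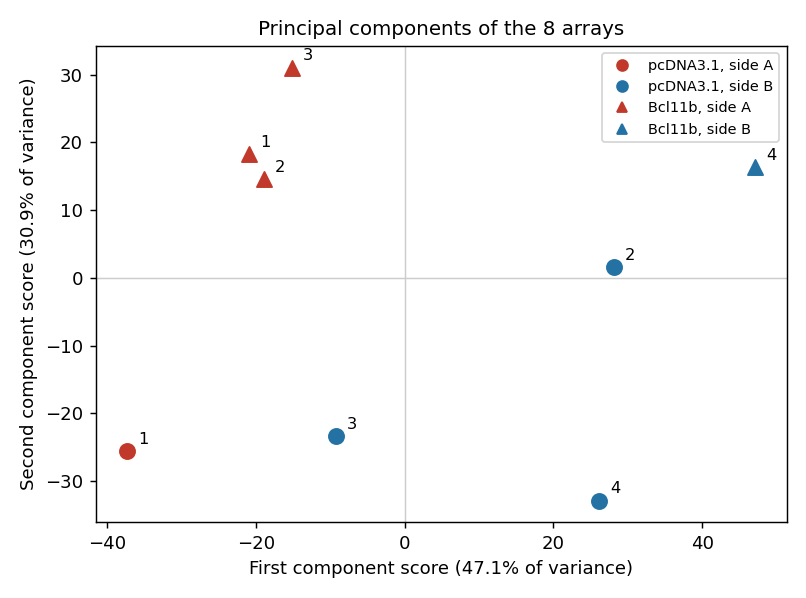
Scores of the 8 arrays on the first (x axis, 47.1% of the variance) and second (y axis, 30.9%) principal components of the detected probes on the log2 scale, marked by label and by side. Bcl11b replicate 4 sits at 47.1 on the x axis, while the other 3 Bcl11b arrays sit between -20.9 and -15.1.

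A probe was called separating when all side A arrays lay on one side of all side B arrays within pcDNA3.1 and, in the same direction, within Bcl11b, and when the fitted difference between the sides, adjusted for transfection, was at least 1.5-fold. By this rule 1275 of the 10622 probes (12%) were higher on side A and 1008 (9.49%) higher on side B. These shares are the background for every count below, and since they were chosen on the same values nothing is read from their size. The differences were larger toward side A: 611 probes were at least 2-fold higher there and 248 at least 2-fold higher on side B. The median fitted difference, side A minus side B on the log2 scale, was -0.08 over all detected probes. At the threshold itself, Alg9 lay just inside at -0.5859 and Cdc25a just outside at -0.5849.

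The 2 within-label differences share no array. Across the 10622 probes the difference of pcDNA3.1 replicate 1 from replicates 2 to 4 and that of Bcl11b replicates 1 to 3 from replicate 4 correlated with a Pearson r of 0.716, and 77.1% had the same sign. Past 1.5-fold in both labels, 1680 probes pointed the same way and 15 opposite ways. This agreement is part of what chose the sides, and probes on 1 array are not independent. In each label 1 array stood alone on its side, so each within-label difference rests on that array. A difference in the make-up of the cells and a difference in RNA per cell cannot be told apart in these bulk samples.

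**Figure D2:**
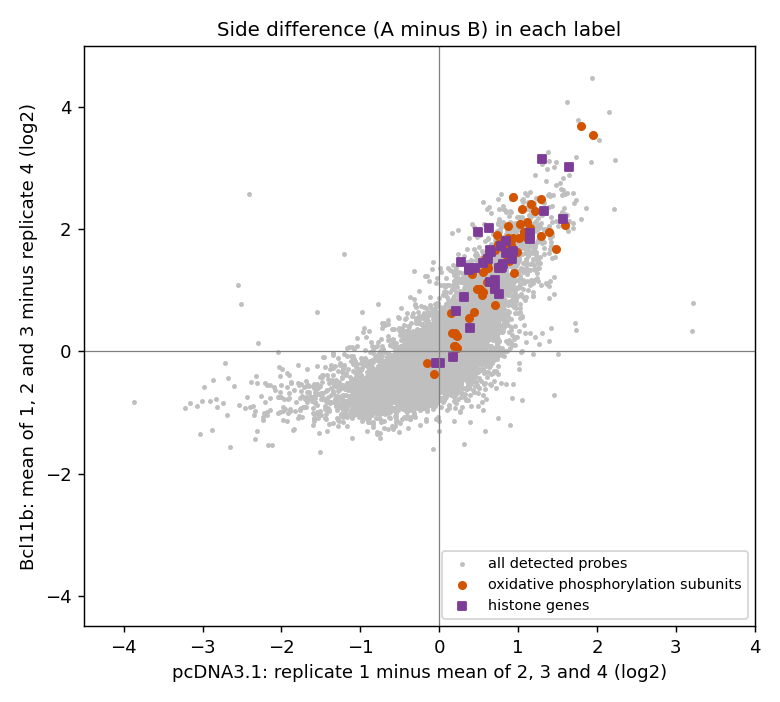
Side difference within pcDNA3.1 (x axis, replicate 1 minus the mean of replicates 2 to 4) against that within Bcl11b (y axis, mean of replicates 1 to 3 minus replicate 4), on the log2 scale, 1 point per detected probe with the oxidative phosphorylation and histone genes marked. Oxidative phosphorylation and histone probes lie mostly in the upper right, and 3 probes, 2 of them for Actb, lie below the lowest axis value of -4.5.

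Oxidative phosphorylation had the largest share of separating members of the 26 gene lists. Of 60 measured subunits, 45 (75%) were higher on side A and 0 on side B, with a median fitted difference of 1.22 and 58 of 60 above 0. The mean level of the list, each gene centred on its own mean over the arrays, was 0.37, -0.49, -0.01 and -0.71 for pcDNA3.1 replicates 1 to 4 and 0.59, 0.52, 0.59 and -0.87 for Bcl11b replicates 1 to 4 on the log2 scale. The arrays of side A lay above those of side B in both labels, with pcDNA3.1 replicate 3 the highest of side B.

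All 5 complexes took part, to different degrees. Complex IV, cytochrome c oxidase, stood out in full, with 10 of 10 measured subunits higher on side A and a median of 1.38. Complex I, the NADH dehydrogenase, had 21 of 27 higher on side A (median 1.26), and complex II had 2 of 3 (0.75). Complex III with cytochrome c had 3 of 6 (0.78) and complex V, the ATP synthase, 9 of 14 (1.18). Subunits of the catalytic cores were among those not called. Atp5a1 (fitted 0.24) and Atp5b (0.05), the alpha and beta subunits of the ATP synthase head, differed little between the sides, as did the complex III core protein Uqcrc1 (-0.17).

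Atp5l, the g subunit in the membrane part of ATP synthase, had the largest difference of any separating probe detected on all 8 arrays. Its log2 signal was 10.02, 8.28, 8.57 and 7.99 in pcDNA3.1 replicates 1 to 4 and 9.99, 10.19, 10.36 and 6.998 in Bcl11b replicates 1 to 4. The 4 side A arrays lay between 9.99 and 10.36 and no side B array came above 8.57. The difference was 1.74 within pcDNA3.1 and 3.18 within Bcl11b, and the fitted difference was 2.46 ± 0.37 (SE, 8 arrays), 5.51-fold. A second, brighter Atp5l probe gave 1.28, also called.

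Atp5e, the epsilon subunit of the same enzyme, and Cox7b, a small subunit of cytochrome c oxidase, led the list by its own rule, with fitted differences of 2.75 and 2.74. Cox7b had log2 signals of 8.27, 5.90, 7.06 and 6.46 in pcDNA3.1 replicates 1 to 4 and 8.62, 8.39, 8.18 and 4.70 in Bcl11b replicates 1 to 4. Both were detected on all 4 side A arrays but on only 2 side B arrays, so the lower values lie near the background of the array. With the 42 called subunits that were detected on all 8 arrays, the list did not rest on such dim probes.

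**Figure D3:**
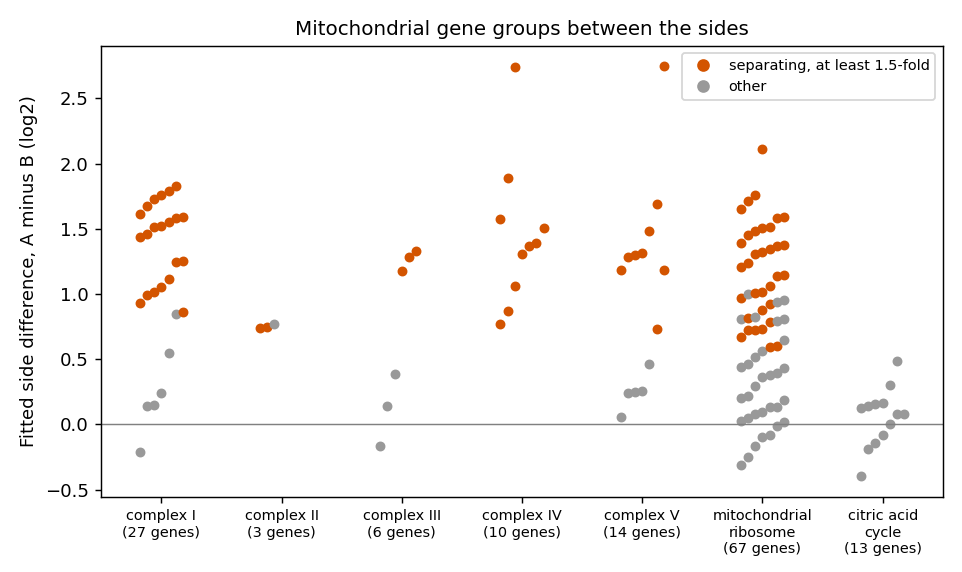
Fitted side difference (log2, side A minus side B) of each measured member of the 5 respiratory complexes, the mitochondrial ribosome and the citric acid cycle, 1 point per gene, with separating genes in orange and the others in grey. The citric acid cycle enzymes stay within -0.40 and 0.48, while all 10 points of complex IV lie at 0.77 or above.

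Other mitochondrial families, chosen after the values were seen, did not move alike. Of 67 mitochondrial ribosomal proteins, 34 were higher on side A and 0 on side B (median 0.79). Mrpl52, of the large mitochondrial subunit, had log2 signals of 11.32, 9.31, 10.22 and 9.57 in pcDNA3.1 and 11.58, 11.39, 11.34 and 8.84 in Bcl11b, a fitted difference of 2.11 ± 0.33 (SE). Among the proteins that carry precursors across the mitochondrial membranes (Timm and Tomm genes), 4 of 15 were higher on side A (0.48), led by Timm13a at 1.31. Fxc1, which RefSeq names Timm10b but which was not counted among the 15 because of its old symbol, had 2.11, with all 3 of its probes called. The 13 enzymes of the citric acid cycle, which sit in the same organelle, had 0 called in either direction and a median of 0.08. Their genes mostly span more of the chromosome than those of the respiratory subunits, and span is taken up below.

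The cytosolic ribosome showed a smaller shift in the same direction. Of 48 measured ribosomal proteins, 21 were higher on side A and 0 on side B, with a median of 0.54 and 41 above 0. The large subunit had 10 of 26 (0.49) and the small subunit 11 of 22 (0.61). Rps15 led the small subunit, with log2 signals of 13.30, 11.93, 13.05 and 12.01 in pcDNA3.1 and 13.56, 13.40, 13.45 and 11.48 in Bcl11b (fitted 1.48). Here pcDNA3.1 replicate 3 lay close to the side A arrays. Rpl29 differed by 1.49, whereas Rpl3 (-0.22) and Rps12 (-0.32) had the lowest values of their subunits. A second, dimmer Rpl29 probe (0.74) was not called. Genes that build ribosomes were mostly not called: ribosome biogenesis had 2 of 26 members higher on side A and 1 higher on side B (median -0.13).

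Replication-type histone genes, a family also chosen after the values were seen, had 25 of 35 members higher on side A and 0 higher on side B (median 1.08). All 11 measured H2a genes were called (median 1.29), with 6 of 7 H3, 5 of 7 H4 and 3 of 9 H2b genes. The linker histone Hist1h1c was not (-0.09). Hist2h2ab, an H2a gene, had log2 signals of 10.51, 9.01, 9.27 and 8.30 in pcDNA3.1 and 10.96, 11.28, 11.46 and 8.21 in Bcl11b. Every side A array was above 10.5 and every side B array below 9.3, with a fitted difference of 2.34 ± 0.42 (SE). Hist1h2ag, another H2a gene, had 10.32, 9.26, 9.53 and 8.28 in pcDNA3.1 and 11.04, 11.22, 11.33 and 8.04 in Bcl11b, a fitted difference of 2.23 ± 0.54. Histone genes of 1 class are nearly identical copies, so a probe may read several of them and the members are not independent.

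The promoters of leading genes from each side are printed here because histone genes are known to share promoter elements and the members moved together. Each is a window of 300 bases, the last 50 of them after the RefSeq start (GRCm38.p6), 5′ to 3′ on the gene's strand, with the matches of the searched motifs in capitals. Hist2h2ab (chr3:96219635-96219934, plus strand, now H2ac21) holds 3 CCAAT boxes on either strand. Hist1h2ag (chr13:22042900-22043199, minus strand, now H2ac11) holds 5, with E2F, CRE and heat shock element matches. Atp5l (chr9:44920693-44920992, minus strand) and Msn (chrX:96095795-96096094, plus strand), the latter higher on side B, both hold an E-box.
Hist2h2ab: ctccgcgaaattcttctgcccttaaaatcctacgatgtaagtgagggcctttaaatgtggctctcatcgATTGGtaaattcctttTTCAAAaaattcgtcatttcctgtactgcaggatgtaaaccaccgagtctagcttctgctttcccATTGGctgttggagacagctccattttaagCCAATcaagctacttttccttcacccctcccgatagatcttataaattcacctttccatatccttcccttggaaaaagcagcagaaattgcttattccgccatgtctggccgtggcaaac
Hist1h2ag: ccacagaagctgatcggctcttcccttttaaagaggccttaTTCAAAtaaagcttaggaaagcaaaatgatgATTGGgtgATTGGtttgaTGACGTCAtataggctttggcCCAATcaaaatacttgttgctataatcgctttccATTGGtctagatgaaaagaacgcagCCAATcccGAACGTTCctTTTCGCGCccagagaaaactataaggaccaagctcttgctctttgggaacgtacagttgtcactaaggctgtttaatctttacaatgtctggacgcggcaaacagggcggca
Atp5l: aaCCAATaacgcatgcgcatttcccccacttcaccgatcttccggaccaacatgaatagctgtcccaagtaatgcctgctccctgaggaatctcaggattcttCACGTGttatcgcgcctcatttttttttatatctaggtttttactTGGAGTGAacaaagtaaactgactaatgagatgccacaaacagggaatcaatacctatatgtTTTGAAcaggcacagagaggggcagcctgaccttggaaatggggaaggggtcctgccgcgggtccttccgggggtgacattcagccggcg
Msn: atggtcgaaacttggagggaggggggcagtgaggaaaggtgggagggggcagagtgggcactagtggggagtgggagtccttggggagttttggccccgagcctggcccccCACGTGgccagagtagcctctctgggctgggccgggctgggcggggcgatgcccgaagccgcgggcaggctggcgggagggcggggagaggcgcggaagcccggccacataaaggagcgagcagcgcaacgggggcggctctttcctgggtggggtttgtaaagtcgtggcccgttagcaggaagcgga

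The CCAAT box, which both histone promoters hold several times, was about as common on either side as over all detected genes. This motif of NF-Y stood in 39.9% of 786 promoters higher on side A, 39.2% of 365 higher on side B, 39.7% of 6132 detected and 37.9% of all 27025 promoters. The E2F motif TTTNGCGC stood in 3.94%, 5.21%, 2.89% and 1.38% of the same sets, and the heat shock element GAANNTTC in 7.25%, 2.74%, 5.58% and 7.95%. The other motifs searched on both strands were CHR (TTTGAA), HRE (ACGTG, which lies within the E-box CACGTG), CRE (TGACGTCA), CARE (TGATGNAA), AP-1 (TGANTCA), SRE (TCACNCCA), ARE (TGACNNNGC), TEAD (GGAATG) and the ISRE. The median GC content was 59.3% on side A, 64.3% on side B and 61.7% over the detected genes. A match is a description of the letters and says nothing of binding.

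Several other genes at the top of side A encode small proteins of general machinery. Gng5, a gamma subunit of heterotrimeric G proteins, had log2 signals of 10.03, 8.68, 8.82 and 8.42 in pcDNA3.1 and 10.18, 10.52, 10.02 and 7.13 in Bcl11b (fitted 2.25). The rest of the 12 leading genes of that side followed at smaller sizes. 3110001N18Rik (now Rpl22l1, a ribosomal protein paralog) differed by 2.21, 2310061C15Rik (Cmc2, which takes part in cytochrome c oxidase assembly) by 2.10, Dpm3 (a subunit of dolichol phosphate mannose synthase) by 2.05 and Serf1 by 2.00. Polr2k, a small subunit shared by the nuclear RNA polymerases, differed by 1.98, and of 13 Polr genes 5 were higher on side A and 1 higher on side B. Small nuclear ribonucleoprotein genes (Snrp and Lsm) had 12 of 20 higher on side A and 1 on side B (median 0.83). The vacuolar proton pump had 4 of 16 higher on side A and 1 on side B (0.21). The cytosolic chaperonin had 0 of 8 called (-0.12), and the nucleoporins had 0 of 14 higher on side A and 1 on side B (-0.31).

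Ccl5, a chemokine of the interferon and NF-kappaB responses, was the only immune gene among the 12. Its log2 signal was 9.69, 7.92, 8.71 and 7.70 in pcDNA3.1 and 10.79, 10.76, 10.78 and 8.43 in Bcl11b, a fitted side difference of 1.96 ± 0.32 (SE). Bcl11b replicate 4 lay below pcDNA3.1 replicate 1, so the labels overlapped (limma adjusted p = 0.493 for transfection). The interferon list had 5 of 15 measured members higher on side A and 2 on side B (median 0.20). Only 8 of the 15 were detected on all 8 arrays, and of these 2 were higher on side A and 0 on side B. Its level was -0.14, -0.38, -0.13 and -0.51 in pcDNA3.1 and 0.43, 0.40, 0.35 and -0.03 in Bcl11b, with pcDNA3.1 replicates 1 and 3 nearly equal. Tapbp, which loads peptides onto class I molecules, went the other way and was detected on 0 side A and 4 side B arrays. Of 16 chemokines and cytokines, 4 were higher on side A and 1 on side B (0.02), led by the neutrophil attractant Cxcl1 (1.15) and the monocyte attractant Ccl7 (1.07).

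Toward side B the differences were smaller and spread over genes of unlike function. Thbs1, the secreted matrix glycoprotein thrombospondin 1, led with log2 signals of 6.85, 9.90, 9.77 and 9.60 in pcDNA3.1 and 9.004, 9.22, 9.07 and 9.91 in Bcl11b. pcDNA3.1 replicate 1 stood far below the others, and the difference was -2.90 within pcDNA3.1 but -0.81 within Bcl11b (fitted -1.86 ± 0.48, SE). Msn, moesin, which links actin to the plasma membrane, had 10.42, 12.62, 11.80 and 12.10 in pcDNA3.1 and 11.94, 11.97, 11.98 and 12.89 in Bcl11b (fitted -1.34 ± 0.28, SE). Over the labels its sides overlapped, since Bcl11b replicates 1 to 3 lay above pcDNA3.1 replicate 3. The rest included C330005L02Rik (Slc25a36, a mitochondrial pyrimidine nucleotide carrier, -1.53), 5730453I16Rik (Cpsf7, a cleavage and polyadenylation factor, -1.45), Tmem2 (a cell surface hyaluronidase, -1.42) and Pcqap (Med15, a Mediator subunit, -1.40). Further down were Poldip3 (-1.40), the translation initiation factor subunit Eif3s9 (-1.37), Ganab (the catalytic subunit of glucosidase II, -1.36) and Atad2 (a bromodomain ATPase, -1.35). As for Msn, the sides overlapped over the labels for LOC215999, 5730453I16Rik, Pcqap, Poldip3, Eif3s9 and C920006C10Rik. Pcqap reached 9.02 on side A and went down to 7.69 on side B. They did not overlap for Thbs1, C330005L02Rik, Tmem2, Ganab and Atad2.

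Second probes often gave a smaller value for these side B genes. The other, brighter probes of 5730453I16Rik (-0.44), Poldip3 (-0.33) and Ganab (-0.31 and -0.47) were not called, nor were those of Tmem2 (-0.35) and Pcqap (-0.50 and -0.37). Another, dimmer Tmem2 probe (0.30) was not called either. The second Eif3s9 probe (-0.85) was called. Over the 1243 genes with exactly 2 probes detected on all 8 arrays, 77 brighter and 143 dimmer probes were higher on side B, against 126 and 127 higher on side A. In the dimmest quintile of the detected probes 15.3% were higher on side B and in the brightest quintile 3.91%, while side A took 12.2% and 13.1%. The part of probe brightness in the side B calls was not tested.

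Growth genes gave no common direction. Of 36 measured DNA replication genes, 1 was higher on side A and 3 on side B (median -0.19). Whether the histone difference has to do with DNA synthesis was not tested. Mcm7, of the replicative helicase, and Ccne2, cyclin E2, were both lower on side A (-0.87 each). Of 28 mitosis genes 1 was higher on each side (median -0.13). Top2a, topoisomerase II alpha, had log2 signals of 10.98, 12.46, 11.79 and 12.45 in pcDNA3.1 and 11.84, 11.87, 11.83 and 12.62 in Bcl11b (fitted -1.01), and Birc5, survivin, differed by 0.79 the other way. The other, dimmer Birc5 probes (0.53 and 0.72) were not called.

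Of 21 p53 targets and CDK inhibitors, 4 were higher on side A and 2 on side B (median -0.13). Bax, a pore-forming promoter of apoptosis, differed by 1.15 and Cdkn2a, which encodes p16 and p19Arf, by 1.07. A second, dimmer Cdkn2a probe (0.51) was not called. Of 26 immediate early genes 2 were higher on side A and 1, Myc (-0.80), on side B (median 0.04). Among 34 growth factors, receptors and feedback inhibitors, 5 were higher on side A and 4 on side B (-0.04), with Igf1, insulin-like growth factor 1, at 0.98. Met, the hepatocyte growth factor receptor, was detected on 0 side A and 4 side B arrays, so only its detection differed measurably.

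Stress lists were mixed as well. The Nrf2 and antioxidant list had 10 of 30 members higher on side A and 0 on side B (median 0.22), with thioredoxin, Txn1, at 1.26. The metallothionein Mt2 was detected on 4 side A arrays but only 2 side B arrays. Txn1 had log2 signals of 11.73, 10.96, 11.27 and 10.84 in pcDNA3.1 and 12.01, 12.09, 12.03 and 10.23 in Bcl11b, with every side A array above every side B array. Of 28 heat shock proteins 4 were higher on side A and 0 on side B, but the median was -0.09. The mitochondrial co-chaperonin Hspe1 (1.55) and the small heat shock protein Cryab (1.18) led them.

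The unfolded protein response had 2 of 18 members called, both higher on side A, and a median of -0.18. These were Sec61b (1.62), a small subunit of the translocation channel, and Selk (1.19), a small selenoprotein of the endoplasmic reticulum, and neither is a chaperone of that response. The integrated stress response had 3 of 33 higher on side A and 4 on side B (-0.08), with Nupr1 at 0.95. Cbs, cystathionine beta-synthase, was detected on the 4 Bcl11b arrays only, where its log2 signals were 8.45, 7.87, 8.24 and 7.72. Its side difference within Bcl11b was 0.47, and within pcDNA3.1 it lay in values below detection. The proteasome list had 9 of 31 higher on side A and 1 on side B (median 0.24), with the catalytic subunit Psmb5 at 1.02 and Psme2, which was below detection on Bcl11b replicate 4, at 1.45.

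Adhesion genes leaned toward side B, whereas few matrix genes differed. Of 15 integrins, cadherins and other surface adhesion genes, 0 were higher on side A and 3 on side B, the median was -0.41 and none of the 15 lay above 0. Of the 14 detected on all 8 arrays, 2 were higher on side B. Cdh6, also called, was detected on 1 side A and 3 side B arrays. The chromosomal spans of these genes are taken up below. The level of the adhesion list was -0.27, 0.34, -0.21 and 0.19 in pcDNA3.1 and -0.13, -0.10, -0.15 and 0.34 in Bcl11b. Here pcDNA3.1 replicate 3 of side B was again near the side A arrays, below Bcl11b replicates 1 to 3, so the sides overlapped over the labels. Cdh2, N-cadherin, had log2 signals of 8.76, 10.27, 9.41 and 10.25 in pcDNA3.1 and 9.53, 9.63, 9.35 and 10.30 in Bcl11b (fitted -1.01). Of 33 collagens and matrix proteins, Thbs1 alone was called (median -0.08), and the laminin chain Lamc1 had -0.52. Of 28 matrix enzymes and inhibitors 1 was higher on side A and 4 on side B (-0.18), and of 29 actin and Srf or Yap genes 1 was higher on side A and 2 on side B (-0.06). The level of the matrix enzymes was -0.14 to -0.03 on side A and 0.07 to 0.12 on side B, without overlap. The protease Adamts1 was called but was below detection on pcDNA3.1 replicate 1, and without that array its difference was -0.59.

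Metabolic genes outside the respiratory chain differed by small amounts as groups, though some list levels did not overlap between the sides. The level of glycolysis was -0.13 to -0.08 on side A and 0.04 to 0.20 on side B. That of fatty acid genes was -0.12 to -0.05 and 0.04 to 0.17, and that of the hypoxia list -0.11 to -0.06 and 0.04 to 0.12. Cholesterol synthesis (-0.12 to 0.09 and -0.05 to 0.18) and lysosome genes (-0.14 to 0.11 and -0.02 to 0.17) overlapped. Glycolysis had 0 of 17 members higher on side A and 2 on side B (median -0.12): hexokinase 1, Hk1 (-0.90), and platelet phosphofructokinase, Pfkp (-0.72). A second, dimmer Pfkp probe (-0.50) was not called. Of 26 fatty acid genes 1 was higher on side A and 3 on side B (-0.20), Etfb (1.37), which passes electrons from fatty acid oxidation to the respiratory chain, being the one on side A. Cholesterol synthesis had 2 of 21 on each side (-0.09). The hypoxia list had 1 of 16 higher on side A and 2 on side B (-0.24), where Hif1a, the oxygen-regulated transcription factor subunit, differed by -1.13 and the mitochondrial protein gene 2310056P07Rik (Fam162a) by 1.30. Lysosome and autophagy genes had 2 of 32 on side A and 1 on side B (-0.06). A second, dimmer Hnrpk probe (-0.0009) was not called in the list of splicing-related RNA-binding proteins and nuclear RNAs. By the brightest probes that list had 0 of 15 on side A and 3 on side B (-0.19), led by Hnrpk (-0.89) and Son (-0.83). It held no Snrp or Lsm genes, of which 12 of 20 were higher on side A and 1 on side B (median 0.83).

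**Figure D4:**
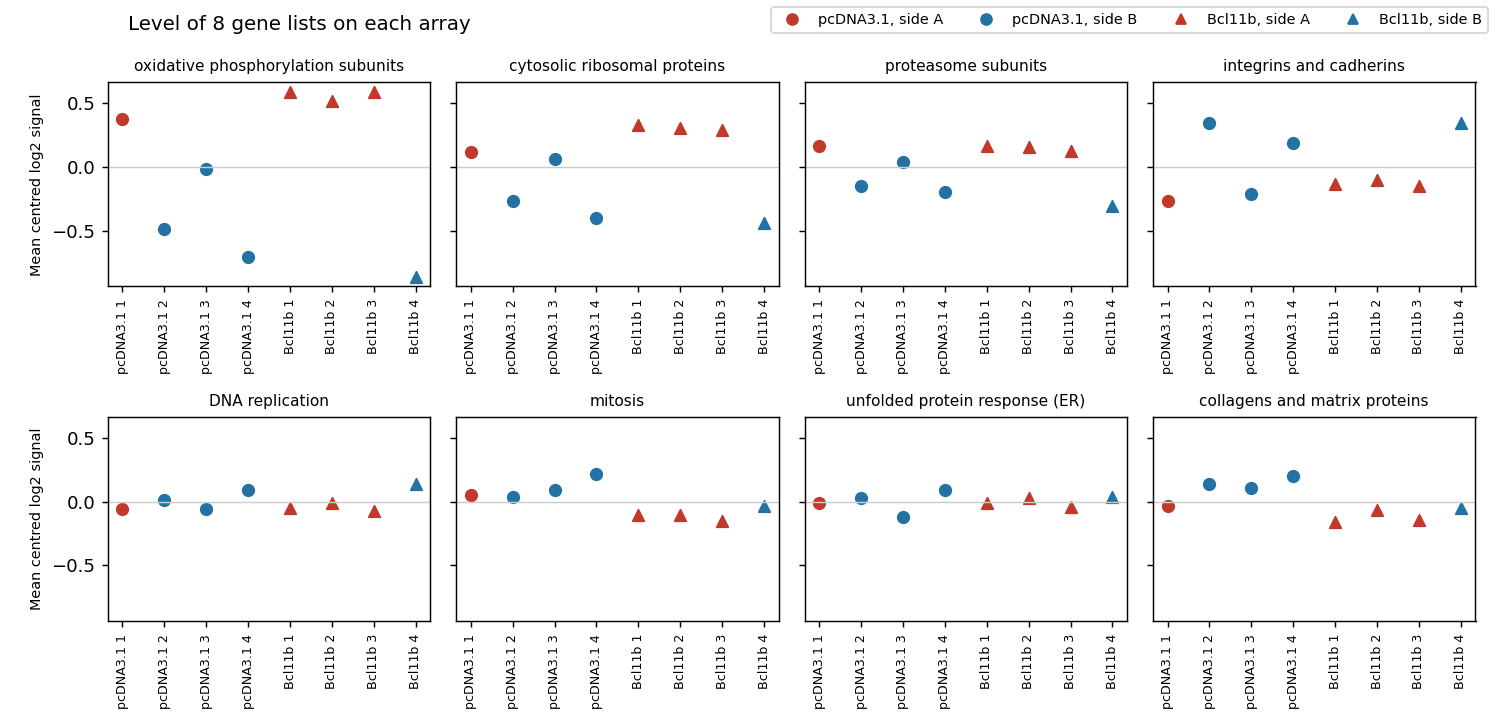
Mean level of 8 of the gene lists on each array (log2, each gene centred on its mean over the 8 arrays), with side A and side B in different colours and the labels in different symbols. Oxidative phosphorylation ranges from -0.87 to 0.59 and places all side A arrays above side B, while integrins and cadherins are lowest on pcDNA3.1 replicates 1 and 3 (-0.27 and -0.21) and DNA replication stays between -0.08 and 0.14.

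Reference genes were mostly level, with 1 of 11 called (B2m, beta-2 microglobulin, 0.76) and a median of -0.03. Actb, cytoplasmic beta-actin, was measured by 5 probes that disagreed, as was noticed after the values were seen. ILMN_2846865 had log2 signals of 0, 14.60, 11.71 and 14.76 in pcDNA3.1 and 9.88, 9.22, 13.48 and 14.52 in Bcl11b, and ILMN_2588055 had 0.55, 14.68, 11.47 and 14.61 and then 9.70, 9.02, 13.35 and 14.76. Neither was detected on pcDNA3.1 replicate 1, where the deposited signals were -17.2 and 2.03 intensity units, against 23905 and 25250 on pcDNA3.1 replicate 2. The other 3 Actb probes differed far less, at -0.03 (ILMN_1377923), -0.17 (ILMN_2698799) and -0.71 (ILMN_2617433, called). Since the floor sets the size on pcDNA3.1 replicate 1, no fold is given for the first pair. Why the probes disagreed was not tested.

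The span of a gene on the chromosome moved with the side difference. Over 7536 genes matched to RefSeq, 1 probe each, the Spearman correlation of span with the fitted difference was -0.394 across genes. The median span was 7380 bp for the 947 genes higher on side A, 50013 bp for the 464 higher on side B and 21718.5 bp over all. In the shortest decile (median 2772 bp), 42.6% of genes were higher on side A and 0.796% on side B, and in the longest decile 3.45% and 13.9%. The median level of the genes in the shortest decile, each centred on its mean over the arrays, was 0.27, 0.26, 0.20 and 0.26 on the 4 side A arrays and -0.24, 0.06, -0.37 and -0.45 on the 4 side B arrays.

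Within the shortest decile, gene groups did not differ alike. In the shortest decile, 15 of 17 oxidative phosphorylation genes and 24 of 34 histone genes were higher on side A, against 16 of 31 ribosomal protein genes and 1 of 13 immediate early genes (median -0.01). Without the oxidative phosphorylation, ribosomal and histone genes, 254 of 653 genes of that decile (38.9%) were higher on side A. From decile 4 upward, 335 of all 5275 genes (6.35%) were higher on side A. Among them, 7 of 15 oxidative phosphorylation genes and 7 of 20 mitochondrial ribosomal protein genes were. Of the 5275 genes, 425 (8.06%) were higher on side B, and the median was -0.14. All 15 measured integrins and cadherins lay in these deciles, with 3 higher on side B (median -0.41). Of the citric acid cycle enzymes 11 lay there, with 0 called (median 0.08), and of the ribosome biogenesis genes 14, with 0 called (-0.18). These deciles pooled spans from 11332 to 1301793 bp, and the share higher on side A went from 11.9% in decile 4 to 3.45% in decile 10. Span was therefore not matched in this comparison. RNA quality, messenger length and probe position were not measured here, and their part in the side difference was not tested.

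**Figure D5:**
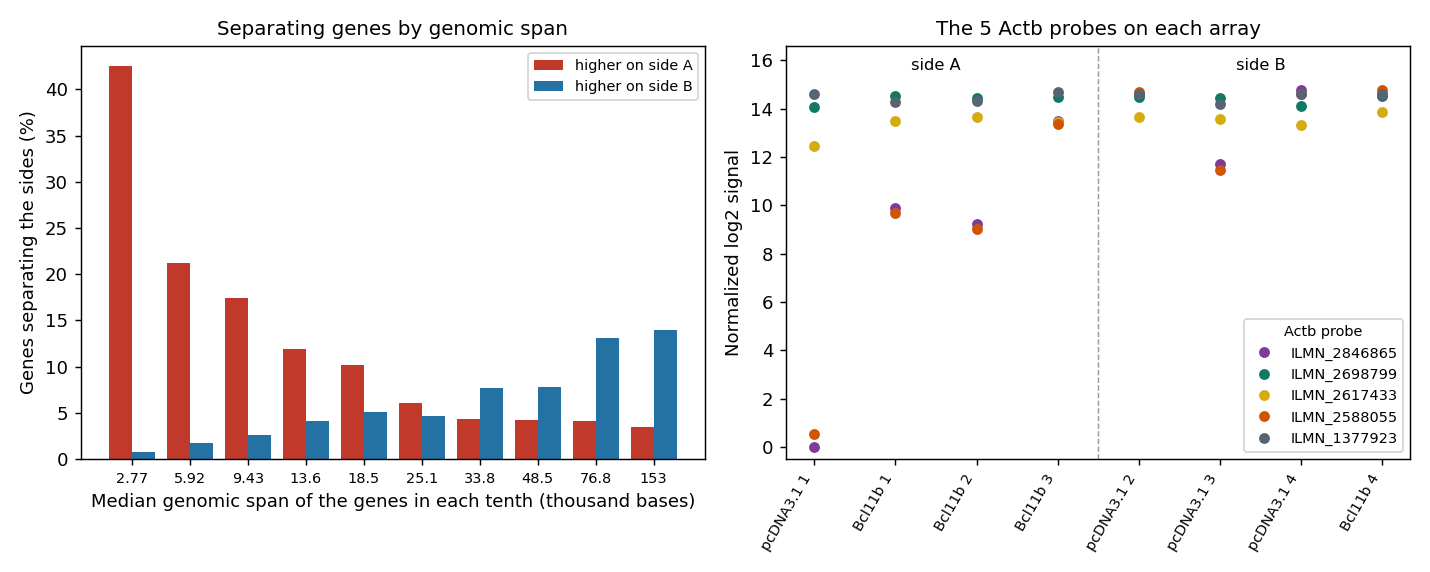
Left, percent of genes higher on side A (red bars) and on side B (blue bars) by decile of gene span, from 42.6% and 0.796% in the shortest to 3.45% and 13.9% in the longest. Right, log2 signal of the 5 Actb probes on each array, where 2 probes run from 0 or 0.55 on pcDNA3.1 replicate 1 to above 14 on pcDNA3.1 replicates 2 and 4 and the other 3 stay above 12.

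The labelled contrast was read from the same 8 arrays. By limma over all 25697 probes, 252 (0.981%) differed between Bcl11b and pcDNA3.1 at an adjusted p-value under 0.10, of which 91 were higher and 161 lower in Bcl11b. With side as a covariate limma called 331, of which 180 were higher and 151 lower. The sides were read from these same arrays, so this count is a description and nothing is read from its balance of directions. Leaving out 1 array at a time gave 64 (without Bcl11b replicate 1, 40 higher and 24 lower) to 639 (without pcDNA3.1 replicate 2, 176 higher and 463 lower). Fos, an immediate early transcription factor, had log2 signals of 7.86, 7.45, 7.29 and 7.51 in pcDNA3.1 and 9.05, 9.22, 8.96 and 9.26 in Bcl11b, a rise of 1.60 (limma adjusted p = 0.0137). Fst, follistatin, an activin-binding protein, had 8.40, 8.74, 8.07 and 8.28 against 10.01, 9.85, 10.17 and 9.88, also a rise of 1.60 (limma adjusted p = 0.0208). For both genes Bcl11b replicate 4 lay with the other Bcl11b arrays, and the fitted side differences were 0.13 and 0.08. Bdnf, brain-derived neurotrophic factor, fell by 0.40 (limma adjusted p = 0.0911), with a side difference of 0.07. Leaving out any 1 array kept the calls of Fos and Fst but ended that of Bdnf, at limma adjusted p-values of up to 0.264. The probe for Bcl11b itself was detected on 0 arrays and so checks no label.

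For lists that separated the sides, the transfection difference depended on whether the sides were in the model, and both versions use the same arrays. The median Bcl11b minus pcDNA3.1 difference of oxidative phosphorylation was 0.47 without the sides and -0.10 with them. Within side A it was 0.21 and within side B -0.41. Ribosomal proteins had 0.22 and -0.04, and integrins and cadherins 0.03 and 0.24. Since 3 of the 4 Bcl11b arrays are on side A and 3 of the 4 pcDNA3.1 arrays on side B, the labels and the sides are partly confounded. DNA replication, which did not separate the sides as a list, had 0.00 without and -0.01 with them.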

How the data were processed

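Per the labels and the study's methods, RNA of each sample was amplified, hybridized to the Illumina MouseRef-8 v2 array and read with GenomeStudio (version not given in the sources used here). The authors deposited an average signal intensity and a detection p-value for each probe and array, background-subtracted and not normalized between arrays. Here the intensities were quantile-normalized over the 8 arrays and floored at 1 before log2 in R 4.3.3 with limma 3.58.1. The side difference came from an additive fit with transfection and side. Leave-one-out fits kept the normalization of all 8 arrays. The labelled contrast used limma's moderated test without the sides and Benjamini-Hochberg adjustment over all probes; the script was tested on simulated data. A gene was represented by its brightest probe detected on at least 4 arrays, and symbols were matched to RefSeq (GRCm38.p6) for spans and promoters, 97.4% of the detected probes matching.

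The sides, gene lists and rules were chosen with earlier results of these data known. Named genes were, in each direction, the 12 with the largest side difference among separating probes detected on all 8 arrays, the 2 largest of each list, and Fos, Fst, Bdnf, Hprt and Bcl11b; subunits and families named beside them were chosen after their values were seen. Array precision is limited by the number of arrays.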

Additional observations from a re-analysis of the deposited data

Results flagged for a closer look

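Within each label of 4 arrays, the highest or lowest array stood apart from the other 3 by Dixon's criterion (the gap to the nearest array as a share of the label's range) for 51 of 224 values tested (22.8%), where chance alone gives about 1 in 20. In 45 of the 51 that array was Bcl11b replicate 4, in 5 pcDNA3.1 replicate 1 and in 1 pcDNA3.1 replicate 3. Bcl11b replicate 4 and pcDNA3.1 replicate 1 are alone on their side within their label, and genes were named for a large side difference, so the choice of sides and genes bears on these counts. By kind, 38 of 82 gene values in Bcl11b and 6 of 82 in pcDNA3.1 stood apart, and 6 of 26 list levels in Bcl11b and 0 of 26 in pcDNA3.1.

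On Bcl11b replicate 4 the score on the first principal component was 47.1, against -20.9 to -15.1 for the other Bcl11b arrays. List levels there were low for oxidative phosphorylation (-0.87), ribosomal proteins (-0.44), Nrf2 targets (-0.36), proteasome subunits (-0.31) and the interferon response (-0.029), and high for integrins and cadherins (0.34).

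Log2 signals on Bcl11b replicate 4 stood below the other Bcl11b arrays for genes of mitochondria and translation: Atp5l 6.998, Atp5e 4.12, Cox7b 4.70, Mrpl52 8.84, Fxc1 6.71, 2310061C15Rik 6.30, Etfb 9.002, 2310056P07Rik 10.50, 3110001N18Rik 6.43, Rpl29 10.50 and Rps15 11.48. They also stood below for Hist2h2ab at 8.21, Hist1h2ag at 8.04, Gng5 at 7.13, Dpm3 at 7.52 and Serf1 at 6.53. Stress, secretory and immune genes with low values there were Txn1 (10.23), Mt2 (6.58), Cryab (8.46), Nupr1 (11.79), Sec61b (7.70), Selk (7.71), Psme2 (6.02), Psmb5 (9.29), Ccl5 (8.43), Cxcl1 (7.23), Ccl7 (8.33) and B2m (11.95). Birc5 (11.39) and Npc2 (9.59), a sterol-binding protein of the lysosome, were also low. Higher on this array than on the other Bcl11b arrays were Msn (12.89), Top2a (12.62), Lamc1 (11.14), Cdh6 (7.37), Hif1a (9.73), Poldip3 (10.90), 5730453I16Rik (9.93) and LOC215999 (9.88), a symbol with no RefSeq match.

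On pcDNA3.1 replicate 1, Thbs1 (6.85), Tmem2 (6.73), Ppgb (6.65), which encodes the lysosomal protective protein cathepsin A, and Met (2.94, not detected) stood below the other pcDNA3.1 arrays and Hspe1 (12.30) above them. The Actb probe ILMN_1377923 had 14.18 on pcDNA3.1 replicate 3, below 14.60 to 14.63 on the others.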

How the results depend on the processing

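The limma count of probes called for transfection, 252, was 57 without normalization between arrays, 413 with neqc, 134 over the probes detected on all 8 arrays, 642 with arrayWeights and 45 with limma-trend and robust moderation, and leaving out 1 array gave 64 to 639. The split was 180 higher and 151 lower with side as a covariate and 35 and 10 with limma-trend, against 91 and 161. The sides came from these same arrays, so the first of these splits is a description only. More were higher than lower without any 1 array other than pcDNA3.1 replicate 2 and Bcl11b replicate 4. By array, the count was 116, 639, 114 and 96 without pcDNA3.1 replicates 1 to 4 and 64, 100, 88 and 237 without Bcl11b replicates 1 to 4. Fos and Fst lost their calls without normalization (limma adjusted p = 0.143 and 0.125) and under the block, out of 18 alternatives, and Bdnf kept its call under 3 of 18, with adjusted p-values from 0.0717 to 0.336.

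The count of separating probes, 2283, was 3499 with no detection filter, 3879 at a lower fold limit, 859 at 2-fold and 1081 by the plain mean of side A minus side B, with 2176 to 3009 when 1 array was left out. Of these, 1803 with no filter, 1784 at the lower fold limit, 611 at 2-fold and 849 by the plain mean were higher on side A (1211 to 1668 with 1 array left out). On side B there were 1696 with no filter, 2095 at the lower fold limit, 248 at 2-fold and 232 by the plain mean (913 to 1341 with 1 array left out), so at the lower fold limit side B had more than side A. No probe called in both settings changed direction. The median of integrins and cadherins was -0.21 with no filter. With 1 array left out it was -0.55 to -0.35, that of oxidative phosphorylation 0.79 to 1.64 and that of ribosomal proteins 0.41 to 0.68. The lowest values of both, like 1.74 for Atp5l and 0.75 for Sec61b, came without Bcl11b replicate 4, and Thbs1 was -0.81 without pcDNA3.1 replicate 1; leaving out either array leaves the other label's difference alone.

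The replicate numbers were not used to pair the samples. The deviations of same-numbered arrays from their label means correlated at 0.634, -0.623, 0.151 and 0.650. The best-correlated Bcl11b array had the same number for pcDNA3.1 replicates 1 and 4 only. Numbers 1 and 4 lie within 1 side and numbers 2 and 3 cross the sides, so these correlations cannot settle the pairing. With the number as a block, 45 probes were called for transfection (limma adjusted p = 0.152 for Fos and 0.205 for Fst) and 1776 separated the sides, 920 higher on side A and 856 on side B. Oxidative phosphorylation then had a median of 0.81, ribosomal proteins 0.26, integrins and cadherins -0.35, and the interferon list -0.01. Values near the background of the array, such as those of Met, Atp5e and Cox7b on 1 side, have an uncertain size.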
